A study of Mus musculus with 17 samples.

Results

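Hair follicle stem cells sorted by the Lrig1 reporter (Lrig1 cells) were compared with those sorted by the Lgr6 reporter (Lgr6 cells), with both genotypes of the study pooled. All 5 Lrig1 libraries, 2 WT and 3 Pelo -/-, and all 6 Lgr6 libraries, 3 WT and 3 Pelo -/-, were taken by their labels, 11 of the 17 libraries of the series, and genotype was a term of the model. The mice were C57BL/6 animals of 3 months. Lrig1 cells came from the Lrig1EGFP-CreERT2 line and Lgr6 cells from the Lgr6EGFP-CreERT2 line. The libraries labelled WT came from Pelo fl/+ mice, so 1 Pelo allele was floxed there too, and those labelled Pelo -/- came from Pelo fl/fl mice. Mice of both genotypes had received 4-OHT (4-hydroxytamoxifen), which activates the Cre recombinase in the cells that carry the reporter. From each epidermal suspension 1000 GFP+ cells were collected by flow cytometry and sequenced by a full-length method for small RNA amounts. Because each population comes from its own mouse line, a difference between populations and a difference between lines cannot be told apart. No label ties a replicate to an animal of its own, and the p-values therefore measure only the spread between these samples, part of which may be technical.

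Lrig1 is a membrane protein that restrains signalling by the EGF receptor family, and it marks stem cells at the junction of the follicle with the sebaceous gland and the surface epidermis. Lgr6 is a receptor for R-spondins, which amplify Wnt signals, and it marks cells of the isthmus just above the bulge. Both populations lie above the Lgr5 stem cells of the lower bulge and hair germ, and both have been described as sources of sebaceous gland and epidermis.

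Of the 2 sorting markers, Lgr6 RNA was higher in value in the cells labelled for it and Lrig1 RNA was not, and neither difference passed the test. Lrig1 was at 30.8 and 36.9 CPM (counts scaled to a common library size by TMM) in the WT Lrig1 libraries and at 31.4, 6.74 and 10.4 CPM in the Pelo -/- Lrig1 libraries. In the Lgr6 libraries it lay between 32.7 and 50.4 CPM with a median of 40.4. Lrig1 RNA was thus lower in value in the cells sorted for its own reporter, by 0.84 ± 0.35 (SE) on the log2 scale, and did not pass the test (edgeR adjusted p = 0.665). Lgr6 lay between 51.5 and 89.4 CPM in Lrig1 cells and between 58.8 and 166 CPM in Lgr6 cells, with a log2 fold change of -0.70 ± 0.25 (edgeR adjusted p = 0.588). All log2 fold changes here are Lrig1 minus Lgr6. Pelo, the gene deleted in the study, was low throughout, with means of 2.48 CPM in Lrig1 and 3.21 CPM in Lgr6 cells. In Lrig1 cells it was at 4.75 and 3.29 CPM in WT and at 3.18, 0.438 and 0.766 CPM in Pelo -/- libraries. In Lgr6 cells it was at 3.31, 4.00 and 1.69 CPM in WT and at 2.58, 3.87 and 3.79 CPM in Pelo -/- libraries. For Pelo -/- against WT in the same fit, 0 of 19107 genes passed the test in edgeR. The exons of the annotated Pelo gene share 60% of their 50-base words with other genes, so its reads may be split.

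Total counts lay between 13333497 and 28098841 per library. In a principal component analysis of the 11 libraries, the second component, with 11.8% of the variance, ordered the populations. All 5 Lrig1 libraries scored between 26.96 and 49.25 on it, and 5 of 6 Lgr6 libraries scored between -68.0 and -31.0. WT Lgr6 replicate 2 stood apart from the other Lgr6 libraries at 7.33. It alone among them held many counts of these wound and cornification genes: 763 counts of S100a8, 444 of S100a9, 1147 of the collagenase gene Mmp13 and 1220 of Sprr1b. The other 10 libraries held at most 7 counts of S100a8 and of Mmp13, 4 of S100a9 and 31 of Sprr1b. Its sum over all listed spinous and granular genes was the lowest of the Lgr6 libraries, 5039 CPM against 5198 to 14699 CPM. Its mean log2 CPM over the same genes was the highest of them, 4.27 against 3.04 to 4.12, so the 2 measures went opposite ways. Results are therefore given with and without this library where it changes them, and leaving it out removes the Lgr6 library nearest to the Lrig1 cells on the second component. It was not the nearest by median Spearman correlation with the Lrig1 libraries, at 0.9144. Pelo -/- Lgr6 replicate 3 was at 0.9218 and WT Lgr6 replicate 3 at 0.9153. WT Lrig1 replicate 2 lay at the far end of the first component (-94.2, against -31.2 to 45.2 in the other Lrig1 libraries). The labels give no sex. Transcripts of 4 Y-linked genes were present in 4 of 5 Lrig1 and 3 of 6 Lgr6 libraries, so a fit with their presence as a term is also given. Libraries with and without them occurred together in WT Lrig1, WT Lgr6 and Pelo -/- Lgr6, so these groups did not each come from a single animal. WT Lgr6 replicate 2 was the only WT Lgr6 library with them.

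**Figure D1:**
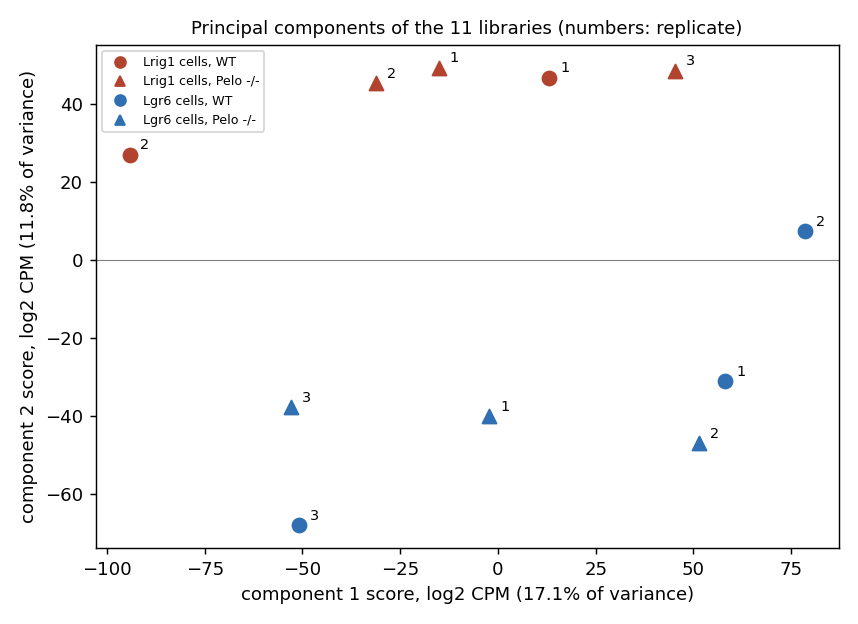
Scores of the 11 libraries on the first principal component (horizontal axis) and the second (vertical axis), from log2 CPM of the tested genes, with the replicate number beside each point. Red marks Lrig1 cells and blue Lgr6 cells, circles WT and triangles Pelo -/-; WT Lgr6 replicate 2 is the Lgr6 point above 0 on the second component.

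Across 19107 tested genes, 1 passed the test between the populations at an adjusted p under 0.05 (0.00523% of genes), and it was higher in Lrig1 cells. No gene passed as lower (0 of 19107, 0%). At an unadjusted p under 0.05 there were 1330 genes (6.96%), against 955 that a flat distribution of p-values would give. Of these, 622 were higher in Lrig1 cells (3.26%) and 708 lower (3.71%). The values of the 2 populations did not overlap for 79 genes that were higher (0.413%) and 85 that were lower (0.445%), 164 in all (0.858%). Leaving out 1 library at a time gave totals between 205 and 330, with 299 without WT Lgr6 replicate 2. The median log2 fold change of all tested genes was -0.04. DESeq2 called more, 81 genes higher (0.446% of 18158) and 86 lower (0.474%). When WT Lgr6 replicate 2 was left out, edgeR's calls came to 13 higher and 9 lower of 18009 genes. With the Y-linked term added to that fit they came to 2 higher (Sostdc1 and Slc38a4) and 1 lower (Cap1) of 19983. The other calls of the fit without that library were lost there.

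The gene that passed was Sept11 (ENSMUSG00000058013.11), which encodes a septin, a GTP-binding protein that forms filaments of the cytoskeleton. It is a protein-coding gene on the plus strand of chromosome 5, from 93093437 to 93176447 in GRCm38 (GENCODE M21). Its level was 118.5 and 153.1 CPM in the WT Lrig1 libraries and 119.4, 124.7 and 93.3 CPM in the Pelo -/- Lrig1 libraries. In Lgr6 cells it lay between 30.5 and 56.1 CPM with a median of 50.3. The lowest Lrig1 library was therefore above the highest Lgr6 library. The log2 fold change was 1.46 ± 0.19 (edgeR adjusted p = 0.0204), with means of 121.8 ± 21.3 CPM (SD, n = 5) and 45.7 ± 11.1 CPM (SD, n = 6). Within WT it was 1.36 ± 0.28 and within Pelo -/- 1.54 ± 0.26. The call did not hold in 8 of the 11 fits that left out 1 library, where the adjusted p lay between 0.0553 and 0.101 and the fold change between 1.38 and 1.56. With the Y-linked term the adjusted p was 0.0534, and among the 7 libraries with Y-linked transcripts it was 0.728 at a log2 fold change of 1.33.

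Next in order were a complement regulator and a cytochrome P450. Cd59a (chromosome 2, 104095801 to 104115354, plus strand) encodes a lipid-anchored surface protein that blocks the membrane attack complex of complement. It was at 163.5, 64.5, 164.3, 219.5 and 204.0 CPM in the Lrig1 libraries, the second being WT replicate 2, and between 21.7 and 63.1 CPM in the Lgr6 libraries, with a median of 34.0. The groups did not overlap, although WT Lrig1 replicate 2 came within 2 CPM of WT Lgr6 replicate 2. Its log2 fold change was 2.10 ± 0.32 (edgeR adjusted p = 0.0637), and without WT Lgr6 replicate 2 it was 2.29 ± 0.28 (adjusted p = 0.00489). With the Y-linked term added to the fit without that library, Cd59a did not pass. Cyp2b10 (chromosome 7, 25897620 to 25926624, plus strand), an enzyme that oxidises drugs and other foreign compounds, was at 138.1, 108.9, 104.4, 148.2 and 115.3 CPM in Lrig1 cells. In Lgr6 cells it lay between 6.32 and 38.1 CPM with a median of 26.5. Cyp2b10 thus differed by 2.39 ± 0.38 on the log2 scale (edgeR adjusted p = 0.0637), with no overlap, and 8.7% of its 50-base words occur in other genes, mostly Cyp2b13.

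The same rule takes genes at a mean log2 CPM of 3 or more and leaves out predicted, RIKEN and non-coding identifiers. By it another 5 genes are named on the higher side, none of which passed the test with all libraries. Without WT Lgr6 replicate 2, Fam84a (edgeR adjusted p = 0.0199), Mill1 and Hpgd (0.0497 each) passed. None of the 5 did when the Y-linked term was added to that fit. Mill1, a relative of the MHC class I heavy chains, was between 55.1 and 119.7 CPM in Lrig1 and between 13.3 and 44.8 CPM in Lgr6 cells, with a log2 fold change of 1.80 ± 0.32 (edgeR adjusted p = 0.171). Hpgd, which encodes the enzyme that inactivates prostaglandins, was at 64.4, 34.4, 72.3, 55.5 and 75.2 CPM in Lrig1 cells and between 4.08 and 25.8 CPM in Lgr6 cells. Its fold change on the log2 scale was 2.02 ± 0.39 (adjusted p = 0.171). Smpdl3a, a phosphodiesterase related to acid sphingomyelinase, had 1.15 ± 0.23 and Cutc, named for a role in copper handling, had 1.10 ± 0.24, each with no overlap between the groups. Fam84a had 1.20 ± 0.26 and overlapped, because WT Lgr6 replicate 2 was at 137.5 CPM against at most 67.5 CPM in the other Lgr6 libraries.

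On the lower side, among genes at a mean log2 CPM of 3 or more, the gene with the smallest p was Cap1 (chromosome 4, 122859047 to 122886056, minus strand), which encodes a protein that recycles actin monomers. It was at 59.9, 27.8, 43.4, 37.5 and 24.0 CPM in the Lrig1 libraries. In Lgr6 cells WT replicate 2 was at 40.1 CPM and the other 5 libraries lay between 116.7 and 309.3 CPM. The single low Lgr6 library fell within the Lrig1 range and the rest did not. The log2 fold change was -2.18 ± 0.40 (edgeR adjusted p = 0.171), and without that library it was -2.42 ± 0.29 (adjusted p = 0.00489).

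Of the 8 genes that led this side, 3 were copies of 1 gene of the cornified envelope. Sprr2a1, Sprr2a2 and Sprr2a3 encode small proline-rich proteins that are cross-linked into the envelope of differentiating keratinocytes. They lie on the plus strand of chromosome 3, and 96.3%, 96.5% and 61.1% of their 50-base words occur in other genes, so reads may be split between them and they are not 3 independent measurements. The annotated exons of Sprr2a1 and Sprr2a2 overlap by 43 bases on the same strand. The stretch before the start site is shown to let the likeness of the copies be seen. It runs from 250 to 51 bases before the RefSeq start (GRCm38.p6, plus strand), at chr3:92215585-92215784 for Sprr2a1, chr3:92250397-92250596 for Sprr2a2 and chr3:92285054-92285253 for Sprr2a3. Capitals mark the run of 172 bases that all 3 share, and the Sprr2a2 window is identical to that of Sprr2a1.
Sprr2a1: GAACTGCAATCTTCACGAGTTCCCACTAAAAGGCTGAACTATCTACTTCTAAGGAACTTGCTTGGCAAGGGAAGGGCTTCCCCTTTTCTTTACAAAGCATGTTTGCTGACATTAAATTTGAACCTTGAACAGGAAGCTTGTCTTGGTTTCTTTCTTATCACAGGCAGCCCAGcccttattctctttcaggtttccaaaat
Sprr2a3: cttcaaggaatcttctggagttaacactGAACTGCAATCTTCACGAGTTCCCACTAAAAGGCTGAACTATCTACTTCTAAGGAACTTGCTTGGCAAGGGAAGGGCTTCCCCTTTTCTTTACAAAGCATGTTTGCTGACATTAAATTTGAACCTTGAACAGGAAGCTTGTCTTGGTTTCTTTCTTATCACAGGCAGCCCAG
In Sprr2a3 the shared run sits 28 bases nearer to the start.

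Sprr2a1 was at 87.6, 157.9, 106.6, 55.1 and 57.1 CPM in the Lrig1 libraries, at 114.4 CPM in WT Lgr6 replicate 2, and between 237.7 and 495.2 CPM in the other 5 Lgr6 libraries. Sprr2a1 had a log2 fold change of -1.92 ± 0.36 (edgeR adjusted p = 0.171). Sprr2a2 had -1.86 ± 0.39 and Sprr2a3 -1.78 ± 0.38, with the same library low in each. Without WT Lgr6 replicate 2 the 3 copies had -2.12, -2.08 and -1.99 on the log2 scale and passed the test (adjusted p between 0.00489 and 0.00926). None of the copies passed when the Y-linked term was added to that fit. That library was thus low in the Sprr2a copies while it held 1220 of the counts of Sprr1b, 582 of Sprr2h and 172 of Sprr2d.

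The other 4 genes of this side were Bcat2, Avpi1, Wnt7b and Limch1. Bcat2, a mitochondrial enzyme of branched-chain amino acid breakdown, lay between 20.6 and 25.6 CPM in Lrig1 cells and between 30.6 and 68.1 CPM in Lgr6 cells, with no overlap. Bcat2 had a log2 fold change of -1.19 ± 0.23 (edgeR adjusted p = 0.171). Its exons overlap 622 bases of a gene on the opposite strand, and the sources used here do not say whether counting used strand. Wnt7b, a secreted Wnt ligand, was at 5.69, 8.11, 4.36, 5.75 and 10.9 CPM in Lrig1 cells and between 13.3 and 22.6 CPM in Lgr6 cells, with -1.43 ± 0.31 (adjusted p = 0.213), and 324 of its exon bases are likewise covered on the opposite strand. Avpi1 had -1.38 ± 0.29, and Limch1, an activator of non-muscle myosin, -2.75 ± 0.62, both with overlap. Outside the rule for naming genes, and chosen after its values were seen, Csrp2, a LIM domain protein of the actin cytoskeleton, had -4.25 ± 0.67 (adjusted p = 0.0637). It was at most 2.35 CPM in Lrig1 cells and at least 6.63 CPM in Lgr6 cells. Csrp2 passed in edgeR without WT Lgr6 replicate 2 (adjusted p = 0.0331) and with a filter at a mean CPM of 5 (adjusted p = 0.0116). DESeq2 also called it (adjusted p = 8.76e-10). With the Y-linked term added to the fit without that library, Csrp2 did not pass.

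**Figure D2:**
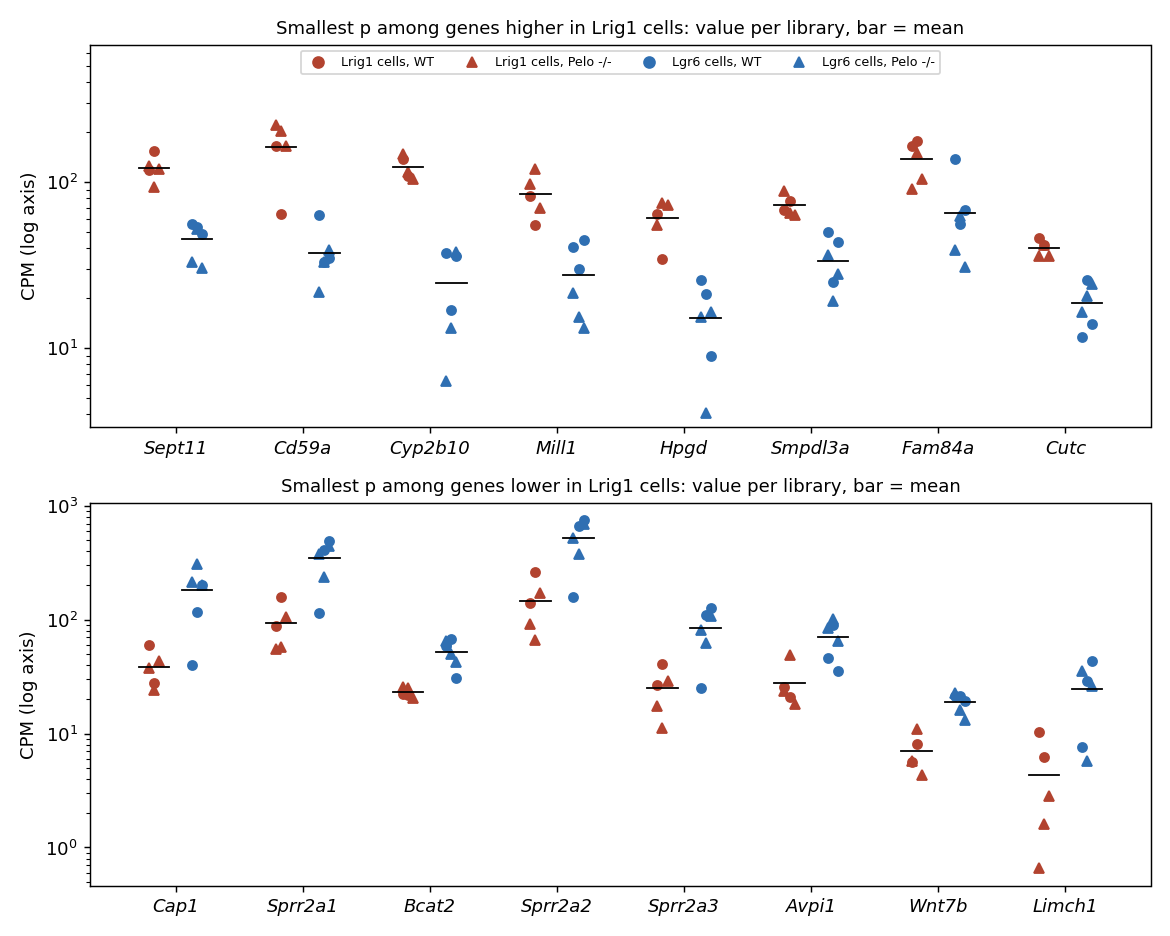
CPM in each library (log axis) for the 8 genes with the smallest p that were higher in Lrig1 cells (upper panel) and the 8 that were lower (lower panel), among genes at a mean log2 CPM of 3 or more whose symbols are not predicted, RIKEN or non-coding identifiers, red for Lrig1 and blue for Lgr6 cells, circles for WT and triangles for Pelo -/-, with a bar at the mean. Sept11 separates the populations with the least spread, and for Cap1 and the Sprr2a copies 1 WT Lgr6 library lies apart from the other 5.

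In 9 of these 16 genes the populations did not overlap, but the genes were chosen by their p in the same comparison, so nothing follows from that count. All 16 had the same sign within WT and within Pelo -/-, again by their choice. DESeq2 called all 16, against 0.446% of all genes as higher and 0.474% as lower, which their choice by p also favours.

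Among genes of the follicle's stem cells, Sostdc1 and Lgr5 passed the test when WT Lgr6 replicate 2 was left out. When the Y-linked term was added to that fit, Sostdc1 passed (edgeR adjusted p = 0.0153) and Lgr5 did not. Sostdc1 encodes a secreted antagonist of BMP and Wnt signals. It was at 169.2 and 220.8 CPM in the WT Lrig1 libraries and at 129.2, 140.5 and 152.7 CPM in the Pelo -/- Lrig1 libraries. In Lgr6 cells it was at 189.5 CPM in WT replicate 2 and between 19.0 and 62.2 CPM in the other 5 libraries. Its log2 fold change was 1.58 ± 0.36 (edgeR adjusted p = 0.248), and without that library 1.97 ± 0.22 (adjusted p = 0.00489). Lgr5, the receptor that marks the lower bulge and germ, was at 21.96, 7.47, 13.4, 26.7 and 5.57 CPM in Lrig1 cells. It was at 18.3 CPM in WT Lgr6 replicate 2 and at most 1.47 CPM in the other 5 Lgr6 libraries. Its log2 fold change was 3.11 ± 1.13 (adjusted p = 0.589), and 4.37 ± 0.77 without that library (adjusted p = 0.0497). In bulk samples, fewer cells of a type and less RNA per cell cannot be told apart.

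**Figure D3:**
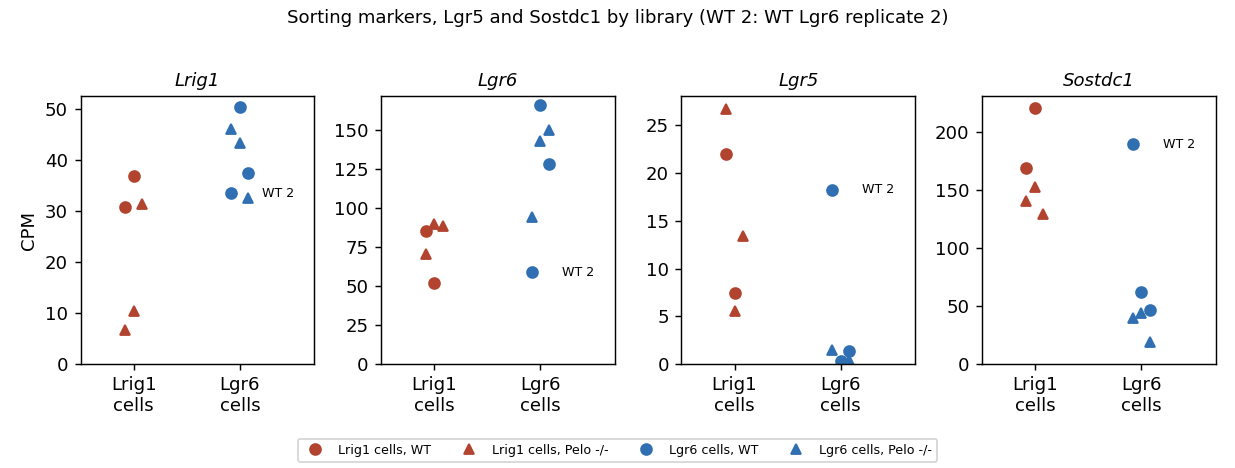
CPM in each library for the 2 sorting markers Lrig1 and Lgr6, for Lgr5 and for Sostdc1, with Lrig1 cells on the left and Lgr6 cells on the right of each panel, circles for WT and triangles for Pelo -/-. Both sorting markers are lower in value in Lrig1 cells, and WT Lgr6 replicate 2 (marked WT 2) lies among the Lrig1 libraries for Lgr6, Lgr5 and Sostdc1.

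Of the list of bulge and hair germ genes, 39 of 40 were tested and 27 were higher in value in Lrig1 cells (46.7% of all genes were), with a median log2 fold change of 0.25. That median was 0.03 among the 7 libraries with Y-linked transcripts and 0.38 without WT Lgr6 replicate 2. None passed the test in edgeR or in DESeq2, and 6 had an unadjusted p under 0.05 as higher (3.26% of all genes did) and 1 as lower (3.71%). Cd34, a surface glycoprotein of bulge cells, was at 22.2, 39.4, 20.7, 9.64 and 9.68 CPM in Lrig1 cells. It was at 28.4 CPM in WT Lgr6 replicate 2 and at most 8.33 CPM in the other Lgr6 libraries, with a log2 fold change of 2.14 ± 0.73 (edgeR adjusted p = 0.570). The connective tissue growth factor gene Ccn2, the heparin-binding growth factor gene Ptn, the keratin gene Krt24 and Angptl7, of the angiopoietin-like family, were also higher in value, by 0.64, 0.47, 1.88 and 1.66 on the log2 scale. Igfbp3, which binds insulin-like growth factors, was lower in value (-0.68). The summed level of the list ran from 7948 to 9880 CPM in Lrig1 and from 6798 to 10006 CPM in Lgr6 cells, so the sums overlapped throughout.

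All 20 genes listed for the upper follicle and isthmus were tested. In value 13 were lower in Lrig1 cells (53.3% of all genes were), with a median of -0.46, and 0 passed the test in edgeR. At an unadjusted p under 0.05, 1 was higher (3.26% of all genes were) and 4 were lower (3.71%). DESeq2 called Sostdc1. Fabp5, a carrier of fatty acids, had means of 54.7 and 107 CPM (-0.96 ± 0.27), and the kallikrein protease gene Klk10 means of 8.10 and 18.1 CPM (-1.23 ± 0.41). The list's sum was 3941 CPM in WT Lgr6 replicate 2 and between 730.2 and 1291 CPM in the other Lgr6 libraries. Without that library the median of the list was -0.08.

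Of the 33 lists, that of G2 and mitosis had the largest share of members with a small p. The lists were chosen with earlier results of these data known, so this rank and the shares below only describe the values. Of 34 genes of G2 and mitosis, all tested, 29 were lower in value in Lrig1 cells and 10 had an unadjusted p under 0.05 as lower, against 3.71% of all genes. In edgeR 0 passed the adjusted test, and in DESeq2 2 passed as lower, Ube2c and Hmmr, against 0.474% of all genes. The median was -0.38, with -0.45 in the fit without WT Lgr6 replicate 2 and -0.23 among the 7 libraries with Y-linked transcripts. Ube2c, the ubiquitin-conjugating enzyme that works with the anaphase-promoting complex, was at 12.7, 7.39, 7.23, 2.79 and 12.5 CPM in Lrig1 cells and between 19.8 and 35.5 CPM in Lgr6 cells, with no overlap (-1.58 ± 0.36, edgeR adjusted p = 0.248). Its exons share 592 bases with Tnnc2 on the opposite strand. Hmmr, a protein of the mitotic spindle, was at 5.93, 3.16, 18.8, 2.96 and 16.9 CPM against 21.5 to 33.7 CPM, also with no overlap (-1.65 ± 0.45, adjusted p = 0.358). The kinetochore motor Cenpe had -1.56 ± 0.46, and the others with a small p were Ckap2, Cdc25c, Cenpa, Cdc20, Tpx2, Cenpf and Ccnb2, between -2.93 and -0.76. The list's sum ran from 371.3 to 773.4 CPM in Lrig1 and from 606.6 to 976.5 CPM in Lgr6 cells. In contrast, 20 of 35 tested S phase genes were lower in value, with a median of -0.06, and 1 had a small p in each direction. Gins4, of the replicative helicase complex, was the S phase gene with the smallest p (0.67 ± 0.26).

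**Figure D4:**
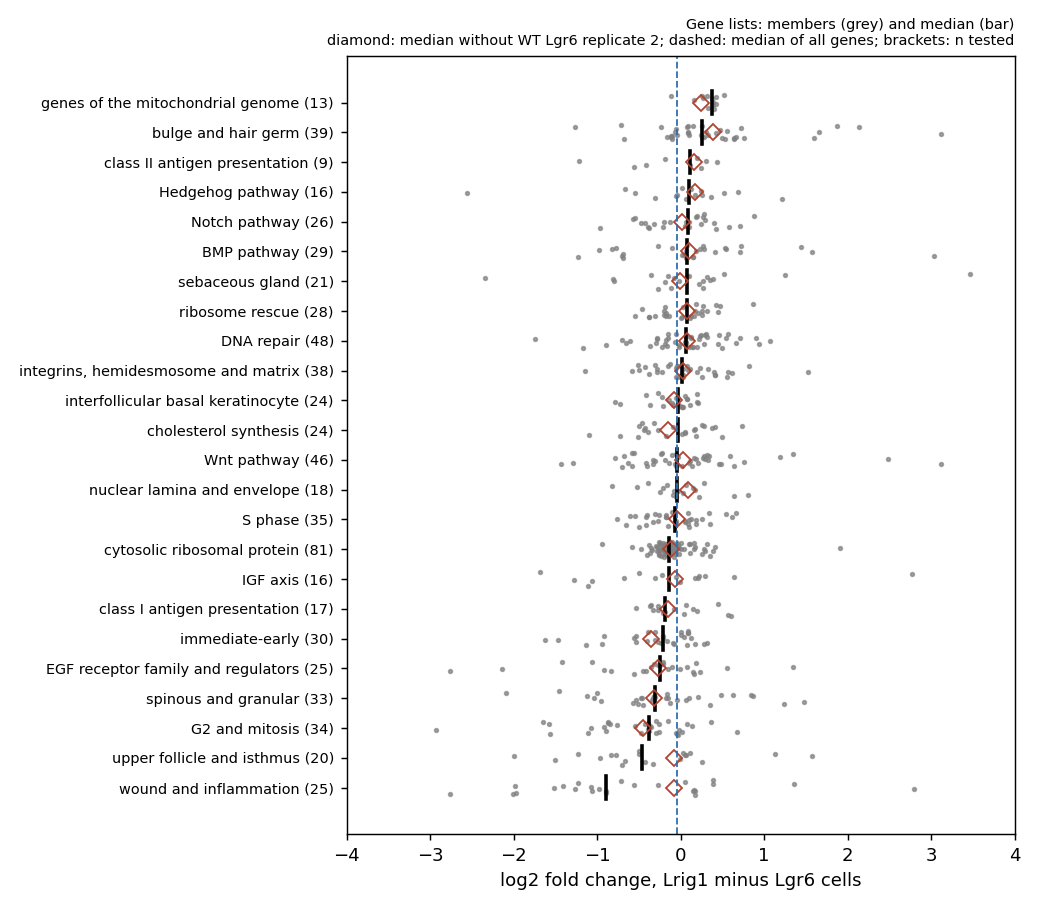
Log2 fold changes (horizontal axis, Lrig1 minus Lgr6) of the tested members of 24 lists, with the number tested in brackets; grey points are genes, bars the list medians, diamonds the medians without WT Lgr6 replicate 2, and the dashed line the median of all tested genes (-0.04). The medians of the wound list and of the upper follicle list move toward 0 without that library, and that of G2 and mitosis does not; 2 genes lie beyond the axis.

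Signalling genes were ordered by their role. Among Wnt genes, 22 of 46 tested were higher and 24 lower in value (median -0.04). At an unadjusted p under 0.05 in edgeR, 2 were higher (3.26% of all genes were) and 5 lower (3.71%). Of the ligands, Wnt7b is given above, Wnt4 had means of 41.6 and 71.5 CPM (-0.78 ± 0.24, edgeR adjusted p = 0.484) and Wnt16 means of 3.72 and 9.04 CPM (-1.29 ± 0.54). The soluble antagonist Sfrp1 was higher in value (0.46 ± 0.20), and Rnf43, an enzyme that removes Wnt receptors from the surface, lower (-0.68 ± 0.32). Among BMP genes, 20 of 29 were higher in value (median 0.08). The receptors Bmpr2 and Acvr1 had 0.41 ± 0.16 and 0.54 ± 0.23, the ligand Bmp2 -0.69 ± 0.31, and the target genes Id1 and Id3 -0.82 ± 0.25 and -0.70 ± 0.27. None of these passed the test (adjusted p between 0.484 and 0.700 in edgeR). Under the alternatives the Wnt median lay between -0.12 and 0.11 and the BMP median between -0.07 and 0.15, so neither list kept a direction.

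Of 25 genes of the EGF receptor family and its regulators, 18 were lower in value in Lrig1 cells, against 53.3% of all genes (median -0.25), 0 passed the test in edgeR or in DESeq2 and 4 had an unadjusted p under 0.05, all lower, against 3.71% of all genes. The ligand gene Hbegf was at 33.2, 44.7, 28.0, 37.6 and 32.4 CPM in Lrig1 cells, at 23.5 CPM in WT Lgr6 replicate 2 and between 51.2 and 105.2 CPM in the other Lgr6 libraries. Its log2 fold change was -1.06 ± 0.31 (adjusted p = 0.477), and without that library -1.24 ± 0.22 (adjusted p = 0.0497). Hbegf did not pass when the Y-linked term was added to the fit without that library. The ligand Areg had means of 0.737 and 5.66 CPM, and Dusp6, a phosphatase that acts on ERK, -0.91 ± 0.29. The fourth gene was Lrig1 itself, which names the sort and the reporter line. The counts for this list include it, although it is tied to how the groups were made. In the Hedgehog list 10 of 16 genes were higher in value (median 0.09), led by Gli3, a transcription factor of the pathway, with means of 35.4 and 15.3 CPM (1.21 ± 0.32, edgeR adjusted p = 0.333). DESeq2 called Gli3 (adjusted p = 0.0399). In the Notch list 15 of 26 were higher in value (median 0.08), and the ligand Jag1 lay between 103.8 and 143.2 CPM in Lrig1 and between 51.7 and 101.7 CPM in Lgr6 cells (0.58 ± 0.19, adjusted p = 0.556). The medians of these 2 lists lay between -0.08 and 0.23 and between -0.02 and 0.22 under the alternatives, across 0 in both.

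In the IGF list, 10 of 16 tested genes were lower in value in Lrig1 cells (median -0.14, between -0.38 and 0.14 under the alternatives). Igfbp4, which binds insulin-like growth factors, was at 16.8, 27.3, 33.0, 25.8 and 31.0 CPM in Lrig1 and between 47.0 and 128.6 CPM in Lgr6 cells, with no overlap (-1.27 ± 0.29, edgeR adjusted p = 0.248). Pappa, a protease that cleaves Igfbp4, had means of 3.72 and 0.726 CPM (2.77 ± 0.90, adjusted p = 0.523). DESeq2 called Igfbp4 as lower (adjusted p = 0.00793) and Pappa as higher (adjusted p = 0.0414).

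Genes of differentiation and of the sebaceous gland held single members that stood out. Of 33 tested spinous and granular genes, 22 were lower in value in Lrig1 cells (median -0.30). Without Pelo -/- Lgr6 replicate 3 the direction turned, with 18 of 33 higher (median 0.03), and without WT Lrig1 replicate 2 the median was -0.65. The epidermal protease gene Asprv1 had means of 2.96 and 11.4 CPM (-2.09 ± 0.75). Sprr1b, first in that list by its p, was carried by WT Lgr6 replicate 2 and gets no fold change here. In the sebaceous list 11 of 21 were higher in value (median 0.07). Without WT Lrig1 replicate 2, 16 of 22 were lower (median -0.28), without WT Lrig1 replicate 1, 15 of 22 were higher (0.22), and among libraries with Y-linked transcripts 15 of 21 were lower (-0.30). Soat1, which esterifies cholesterol, was at 3.01, 39.6, 8.77, 9.53 and 5.85 CPM in Lrig1 and between 0.564 and 2.06 CPM in Lgr6 cells, with no overlap (3.47 ± 0.64, edgeR adjusted p = 0.171). DESeq2 called Soat1 (adjusted p = 1.2e-05). Fasn, the fatty acid synthase gene, was lower in value (-0.80 ± 0.31). Of 24 cholesterol synthesis genes 12 were higher and 12 lower in value, and their regulator Srebf2 had -0.73 ± 0.24.

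Of the wound and inflammation list, 25 of 41 genes were tested, 16 were lower in value in Lrig1 cells and the median was -0.90. Without WT Lgr6 replicate 2 the median was -0.08, so that library set its size. Krt16, a keratin of injured epidermis, was at 295.6 CPM in that library, between 32.5 and 146.1 CPM in the other Lgr6 libraries and between 7.59 and 45.0 CPM in Lrig1 cells (-2.01 ± 0.55, edgeR adjusted p = 0.384), and 37.6% of its 50-base words occur in other genes. DESeq2 called Krt16 (adjusted p = 0.0326). Immediate-early genes were lower in value in 19 of 30 (median -0.21, and -0.02 with the Y-linked term), and in 25 of 29 without that library (median -0.35), whose sum for the list was 2758 CPM against 7145 to 12354 CPM in the other Lgr6 libraries. Ier3, an early response gene, was between 11.6 and 29.1 CPM in Lrig1 cells. In Lgr6 cells it was at 19.6 CPM in WT replicate 2 and between 45.3 and 72.4 CPM in the others (-1.47 ± 0.33, adjusted p = 0.237, and -1.65 ± 0.27, adjusted p = 0.0430, without it). Ier3 did not pass when the Y-linked term was added to the fit without that library. With all libraries DESeq2 called Ier3 (adjusted p = 0.00927). The early transcription factor Nr4a1 had means of 78.4 and 171 CPM (-1.13 ± 0.40).

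Genes of the mitochondrial genome were higher in value in 12 of 13 (median 0.37, and 0.25 without WT Lgr6 replicate 2), and cytosolic ribosomal protein genes lower in 64 of 81 (median -0.14). The ribosomal median was -0.28 within WT and -0.01 within Pelo -/-. WT Lgr6 replicate 3 had a ribosomal sum of 62615 CPM against 33046 to 41720 CPM in the other Lgr6 libraries, and without it 53 of 81 were lower (median -0.06). With the Y-linked term and without WT Lgr6 replicate 2 the mitochondrial and ribosomal medians were 0.09 and -0.02. None passed the test in edgeR or in DESeq2, and 1 in each list had an unadjusted p under 0.05, against 6.96% of all genes. mt-Nd4, a subunit of respiratory complex I, lay between 3259 and 4087 CPM in Lrig1 and between 2068 and 3175 CPM in Lgr6 cells (0.40 ± 0.18, adjusted p = 0.687). The share of mitochondrial counts ran from 6.50% to 7.68% in Lrig1 and from 4.66% to 6.83% in Lgr6 libraries, lowest in WT Lgr6 replicate 2.

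In the other lists the median lay between -0.18 and 0.11. In class I antigen presentation 10 of 17 were lower in value (median -0.18), and H2-Q6, a class I heavy chain, had -0.53 ± 0.23, with 35.0% of its 50-base words in other genes. In class II antigen presentation 5 of 9 were higher in value (median 0.11), with a median of -1.17 within WT and 0.65 within Pelo -/-, a difference that was not tested for the list. The pooled sign turned in limma-voom (-0.27), without the genotype term (-0.41), with all 17 libraries in the fit (-0.31) and without Pelo -/- Lgr6 replicate 1 or 2 or Pelo -/- Lrig1 replicate 1 or 3 (-0.44 to -0.14). Of 28 tested ribosome rescue genes 17 were higher in value (median 0.07), with Ttc37, a scaffold of the SKI complex, at 0.87 ± 0.38. Of 48 DNA repair genes 28 were higher in value (median 0.06), led by the DNA break sensor Parp1 at 1.07 ± 0.34. Of 38 genes of integrins, hemidesmosomes and matrix 20 were higher in value (median 0.02), and Frem2, a basement membrane protein, had 0.82 ± 0.31 with no overlap. Of 24 genes of basal keratinocytes 14 were lower in value (median -0.03), and of 18 of the nuclear lamina and envelope 10 were (median -0.05), with Lmna, for A-type lamins, at 0.80 ± 0.35. Of these lists, DNA repair alone kept the sign of its median under all alternatives (0.004 to 0.15).

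Markers of 9 other cell types were read in the same libraries, and their summed levels overlapped between the populations in each list. The sums ran from 50.1 to 117 CPM in Lrig1 and from 47.2 to 120 CPM in Lgr6 cells for 15 T cell markers (13 tested). For 15 markers of Langerhans cells and macrophages (10 tested) they ran from 9.19 to 25.3 and from 8.46 to 28.9 CPM. For 14 melanocyte markers (11 tested) they ran from 104.6 to 166.0 and from 130.9 to 205.2 CPM. Of the tested melanocyte markers 5 were higher and 6 lower in value in Lrig1 cells (median -0.01), so the list had no direction. Gpnmb, which cells other than melanocytes also express, was lower in value in Lrig1 cells at -1.82 ± 0.47 (edgeR adjusted p = 0.304). DESeq2 called Gpnmb (adjusted p = 0.0188). The defining gene Tyrp1 had at most 6 counts in Lrig1 libraries, 190 in WT Lgr6 replicate 1 and between 0 and 22 in the other Lgr6 libraries. Fibroblast markers (12 of 15 tested) summed to 559.4 to 731.6 and 366.3 to 955.0 CPM. Hair shaft and inner root sheath markers (11 of 15) summed to 13.3 to 30.9 and 15.4 to 37.3 CPM. Within the fibroblast list 10 of 12 tested markers were lower in value in Lrig1 cells (median -0.63, and -0.31 without WT Lgr6 replicate 2), and so were 5 of 5 tested Merkel and neural markers (median -1.05). T cell markers had a median of -0.42, with -1.84 within WT and 0.85 within Pelo -/-. The sums of the neutrophil, endothelial, Merkel and neural, and blood, muscle and fat lists stayed at or under 12.9 CPM in every library. Their part in the differences above was not tested.

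The difference between the populations was then compared between genotypes. In WT alone 0 genes passed the test in edgeR (0%), with 1200 at an unadjusted p under 0.05 (6.28%). In Pelo -/- alone 1 passed (0.00523%), with 1098 at an unadjusted p under 0.05 (5.75%). That gene was Mill1, at 69.8, 97.9 and 119.7 CPM in Lrig1 and 13.3, 21.6 and 15.4 CPM in Lgr6 cells of Pelo -/- mice (2.52 ± 0.31, adjusted p = 0.0213). In WT it was at 82.9 and 55.1 CPM against 44.8, 40.7 and 30.0 CPM (0.84 ± 0.32). The call within Pelo -/- was lost without Pelo -/- Lgr6 replicate 2 or 3 or Pelo -/- Lrig1 replicate 2 or 3, and without WT Lgr6 replicate 2 there were 9 genes.

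For the difference itself, Pelo -/- minus WT, 0 genes passed in edgeR (0%) and 889 had an unadjusted p under 0.05 (4.65%), while DESeq2 called 69. The genes with the smallest p were Vsnl1, Mill1 and Epn1 in the positive direction, at 1.97 ± 0.52, 1.67 ± 0.45 and 2.60 ± 0.70. In the negative direction they were Arhgef28, Cbr4 and Polr3d, at -1.47 ± 0.33, -1.94 ± 0.45 and -2.19 ± 0.53. Vsnl1, a neuronal calcium sensor, was between 27.2 and 35.3 CPM in all Lrig1 libraries, between 14.2 and 31.2 CPM in WT Lgr6 and between 5.15 and 7.73 CPM in Pelo -/- Lgr6 libraries. Arhgef28 was at 51.1 and 61.9 CPM in WT Lrig1, and between 36.1 and 49.1 CPM in Pelo -/- Lrig1 libraries. It lay between 38.2 and 38.6 CPM in WT Lgr6 and between 80.1 and 85.8 CPM in Pelo -/- Lgr6 libraries. For Arhgef28 the values in the Lgr6 cells were thus close within each genotype, but the share of genes with a small p was near that of a flat distribution.

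**Figure D5:**
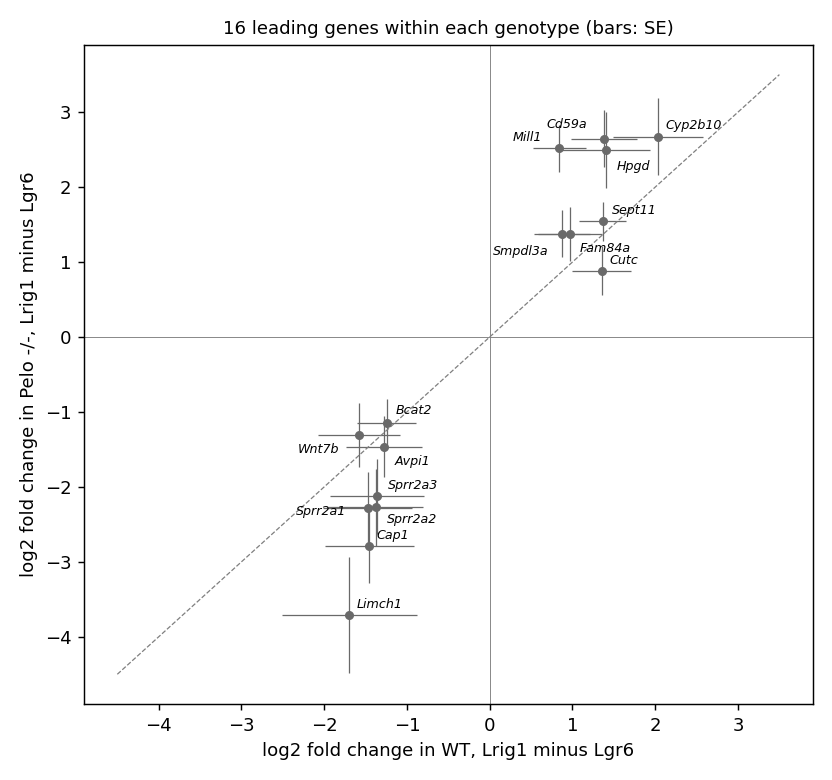
Log2 fold change (Lrig1 minus Lgr6) within WT (horizontal axis) and within Pelo -/- (vertical axis) for the 16 leading genes, with SE bars and a dashed line of equality. All 16 share their sign, which their choice in the pooled comparison favours; Mill1 lies farthest above the line among the genes that were higher.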

How the data were processed

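Per the submitters' processing notes, STAR, edgeR, GRCm38 and mm10 were used; the counter, annotation and strand setting are not stated in these sources. The authors deposited raw counts of genes for 17 libraries, of which 11 were used unchanged. Gene models came from GENCODE M21 (GRCm38): of 48820 identifiers, 40606 matched exactly and 48058 once versions were dropped; promoter sequences came from RefSeq.

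Counts were fitted in edgeR 4.0.16 (R 4.3.3; robust quasi-likelihood, TMM, filterByExpr at count 10 and total 15) with population and genotype, and Benjamini-Hochberg adjusted over 19107 genes. Standard errors were derived from the fold change and F. The fit was also run on simulated counts with known changes. Those had no library that stands apart and no Y-linked difference, so that run cannot vouch for the calls given here. DESeq2 1.42.0 and limma 3.58.1 were alternatives, with other filters, scaling and designs.

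Members and the 33 gene lists were chosen with earlier results of these data known. Named genes were the called genes at a mean log2 CPM of 3 or more, without predicted, RIKEN or non-coding identifiers, filled by p to 8 a direction, the member of each list with the smallest p, the 3 a direction for the difference between genotypes, and Lrig1, Lgr6, Lgr5 and Pelo; further list members with an unadjusted p under 0.05 were named after their values were seen. The series text speaks of triplicates; 2 WT Lrig1 libraries were used here.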

Additional observations from a re-analysis of the deposited data

Results flagged for a closer look

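In 7 of 106 groups of 5 or 6 libraries, 1 library lay far from the others by Dixon's criterion, which chance meets in about 1 group of 20. Each is given in log2 CPM, for lists as the mean over members, and the causes were not tested. WT Lgr6 replicate 2 stood apart from the other Lgr6 libraries in 3 lists. It was at 5.13 for the upper follicle and isthmus (others 3.66 to 4.13), at 3.81 for wound and inflammation (2.40 to 2.59) and at 5.17 for immediate-early genes (6.35 to 6.70). WT Lrig1 replicate 2 stood apart from the other Lrig1 libraries at 6.01 for Cd59a (7.35 to 7.78), at 3.09 for the Notch list (3.51 to 3.67) and at -0.63 for fibroblast markers (0.62 to 0.95). Pelo -/- Lgr6 replicate 3 was at 5.34 for the nuclear lamina and envelope (4.92 to 5.06).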

How the results depend on the processing

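The count of genes called, 1 higher and 0 lower in Lrig1 cells, depended on the settings. Without a filter on low counts edgeR called 96 higher and 119 lower, DESeq2 called 81 and 86, limma-voom 2 and 0, a fit without genotype 2 and 0, and a filter at a mean CPM of 5 called 1 and 1. With all 17 libraries in the fit it called 0 and 0. Leaving out 1 library gave 0 to 13 higher and 0 to 9 lower, most without WT Lgr6 replicate 2, and 0 to 9 genes within Pelo -/-. Chosen after seeing the data, a Y-linked term gave 0 and 0, the 7 libraries with Y-linked transcripts 0 and 0, and the Y-linked term without WT Lgr6 replicate 2 gave 2 higher (Sostdc1 and Slc38a4) and 1 lower (Cap1). DESeq2 called 69 genes for the difference between genotypes, and edgeR 0 in each fit without 1 library. Direction held for 54 of 57 named genes under all alternatives, which the choice of most of them by p in these same libraries favours. The exceptions were Cbr4, at -0.0785 to 0.319 without single libraries (below 0 without each of the 5 WT libraries), -0.244 in libraries with Y-linked transcripts and -0.0702 with the Y-linked term and WT Lgr6 replicate 2 left out, Mpo at -1.50 to 0.178 without single libraries (above 0 without Pelo -/- Lgr6 replicate 1), and H2-Eb1 at 0.0800 in libraries with Y-linked transcripts. The median of all genes moved from -0.04 to -0.14 without a filter and to -0.22 in the fit of 17 libraries. Of 33 list medians 12 kept their sign throughout; the neutrophil list had no member at a mean CPM of 5. The causes were not tested. Same-numbered libraries did not deviate together (correlations of 0.029, -0.115 and -0.105 in Pelo -/-; in WT the 2 shared numbers give a single value, -0.033), so the numbers were not taken as pairs; a replicate block gave 0 higher and 0 lower, with Sept11 at 1.51 (adjusted p = 0.102).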

Other observations

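Without WT Lgr6 replicate 2, edgeR called 22 genes, of which several are not described above and are given here after their values were seen. Of those given here, Slc38a4 alone also passed when the Y-linked term was added to that fit. Slc38a4, a transporter of neutral amino acids, was at 3.81, 20.8, 4.86, 12.2 and 9.05 CPM in Lrig1 cells and at most 3.58 CPM in Lgr6 cells, with no overlap even with that library. Its log2 fold change was 4.01 (edgeR adjusted p = 0.171) with all 11 libraries and 4.75 ± 0.67 (adjusted p = 0.0135) without it. Emb, which brings monocarboxylate transporters to the surface, was between 72.1 and 133 CPM in Lrig1 cells and between 26.3 and 48.1 CPM in 5 Lgr6 libraries, with 87.7 CPM in WT Lgr6 replicate 2 (1.34 ± 0.21 without it, adjusted p = 0.0321; 686 of its exon bases are covered on the opposite strand). The junction protein gene Afdn and the aldehyde dehydrogenase gene Aldh3a1 had 1.01 ± 0.17 and 1.01 ± 0.17. The phosphatase gene Ptp4a2 had -1.17 ± 0.20, with Gm13422, a processed pseudogene that shares sequence with it, at -1.37 ± 0.22.

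Adding presence of Y-linked transcripts as a term called 5 genes for that term, 4 on chromosome Y and Xist, and 0 elsewhere. Libraries without Y-linked transcripts were WT Lrig1 replicate 2, WT Lgr6 replicates 1 and 3 and Pelo -/- Lgr6 replicate 2.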
